A study of Homo sapiens with 4 samples.

Results

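The 20 long noncoding RNA (lncRNA) genes described here were abundant enough to be listed in both libraries of a lung-selected breast cancer subline and were at or near 0 in both libraries of its parent line. They were chosen by their measured levels, as genes named lnc-GENE-number with at least 2 FPKM in each subline library and under 0.1 FPKM in each parental library. FPKM is a level in fragments, corrected for the length of the transcript and for the number of fragments mapped in the library, and the values of a gene's isoforms were added. Of 43199 genes with such a name, among 46902 lncRNA genes in the table, 20 met the rule. Of the 3703 genes with other names, 0 met it.

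MDA-MB-231, the parent, is an established human line of triple-negative breast cancer, grown without any treatment that the labels name. MDA-MB-231-P3, the subline, was made per the labels' protocols by passing the parental cells through the lungs of mice: cells were injected into the tail vein, recovered from lung tumours, grown in culture and injected again, over several rounds. Each line had 2 libraries, and the labels give no sign that these were separate cultures, so the spread between them may be technical. The subline is 1 selected population, and nothing in the labels shows a second, independent selection. In bulk RNA, fewer cells that express a gene and less RNA per cell cannot be told apart.

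LncRNAs are transcripts without a recognised protein product. Many are made from regions between or antisense to coding genes, are present at low levels and are restricted to few cell types, so a lncRNA that is high in one cell line is often barely seen in another. Some act on the chromatin or the genes beside them and others act elsewhere in the cell, while for most no role is known. A name such as lnc-ELP2-1 places the transcript beside ELP2 and gives a running number at that locus. It says nothing of what the RNA does, and the roles given below are those of the neighbouring coding genes. None of the 20 names was found in the RefSeq or GENCODE tables used here, so the members are given by name, with the positions of their neighbours, and no sequence is shown.

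The libraries as a whole differed in ways that touch the choice of the set. The subline libraries listed 57477 and 55862 isoforms above 0, against 52357 and 50931 in the parent. Genes named lnc-GENE-number with at least 2 FPKM numbered 2009 and 2010 in the subline and 1861 and 1870 in the parent, while the summed FPKM was lower in the subline, at 351135 and 372689 against 460282 and 500086. The part of these differences in the membership of the set was not tested. Read depth was unknown, since FPKM values are not counts. The table lists lncRNAs only, so the coding markers that define the cell line could not be examined. LncRNAs known from other cell types had the following sums, whose part in the results was not tested: 6 lymphoid lncRNAs summed to 1.58 and 3.65 FPKM in the parent and 3.17 and 2.69 in the subline. Among them LINC00861, MIR155HG, LINC00892 and LINC02446 were under 0.1 FPKM in all 4 libraries, while PRKCQ-AS1 reached 2.58 and LINC00926 1.07 FPKM. The 5 fibroblast and endothelial lncRNAs listed summed to 26.1 and 17.7 FPKM in the parent and 20.8 and 22.1 in the subline. Of these, MIR503HG reached the highest level and LINC00702 reached 7.39 FPKM, while HHIP-AS1 and LINC00607 stayed lower. CARMN alone was under 0.1 FPKM in all 4 libraries. Of 4 lung epithelial lncRNAs the table held LINC00261 alone, with 7.06 and 7.01 FPKM in the subline against 5.14 and 4.69 FPKM in the parent.

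Levels in the set were mostly modest. The mean over the subline libraries had a median of 4.20 FPKM across the 20 genes, 12 of them had a mean under 5 FPKM, and 6 had at least 5 FPKM in both subline libraries. Across the 1533 lnc-GENE-number genes with at least 2 FPKM in both subline libraries, the median was 5.25 FPKM. In 13 members both parental values were under 0.001 FPKM, and 7 had more than 0.01 FPKM in a parental library. The set took 0.0589% and 0.0428% of the summed FPKM of the subline libraries.

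**Figure D1:**
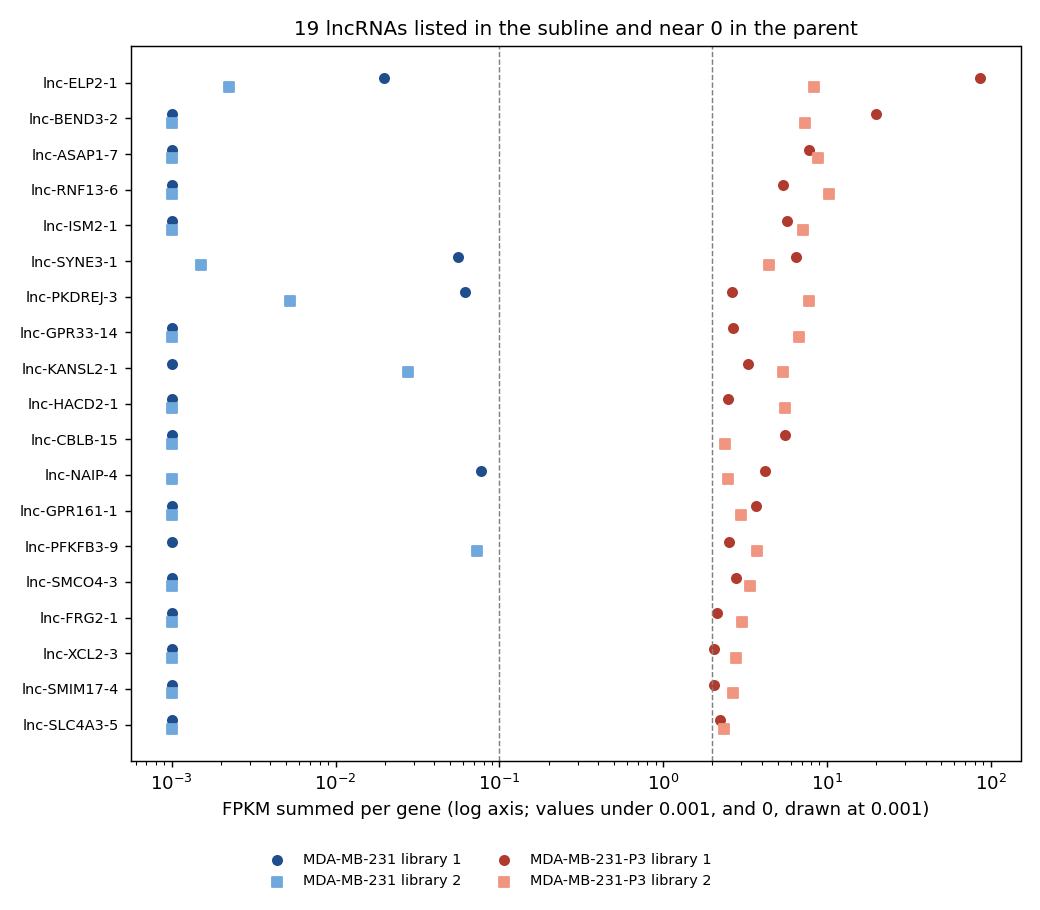
FPKM summed per gene (horizontal log axis) of 19 of the lncRNAs in each of the 4 libraries, 1 point per library, with dashed lines at the limits of 0.1 and 2 FPKM used to choose them. The subline points of lnc-ASAP1-7 lie at 7.73 and 8.83 FPKM, and 13 of the genes have both parental points at the left edge, where values under 0.001 FPKM are drawn.

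Among the 19 members named here, the most abundant on average was lnc-ELP2-1, beside ELP2, a scaffold subunit of the Elongator complex that modifies transfer RNA. It had 86.2 FPKM in subline library 1 and 8.34 FPKM in subline library 2, against 0.0196 and 0.00222 FPKM in the parent. Its subline libraries thus differed 10.3-fold from each other, more than those of any other member, and its mean of 47.3 ± 55.0 FPKM (SD, n = 2) rests on library 1. Next, lnc-BEND3-2 lies beside BEND3, a DNA-binding repressor found at heterochromatin. It had 19.97 and 7.39 FPKM in the subline and under 0.001 FPKM in both parental libraries.

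In the next 4 genes by mean level the subline libraries differed by less than 2-fold. Beside ASAP1, which codes for a GTPase-activating protein of Arf proteins that acts on the cytoskeleton and on cell movement, lnc-ASAP1-7 had 7.73 and 8.83 FPKM. Beside RNF13, a membrane-bound ubiquitin ligase of the endosomes, lnc-RNF13-6 had 5.39 and 10.3 FPKM. Beside ISM2, of the secreted isthmin family, lnc-ISM2-1 had 5.72 and 7.10 FPKM. All 3 were under 0.001 FPKM in both parental libraries. The gene lnc-SYNE3-1, beside the nuclear envelope protein nesprin-3 (SYNE3), had 6.49 and 4.41 FPKM in the subline and 0.0560 and 0.00152 FPKM in the parent.

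Another 5 genes had means between 3.95 and 5.18 FPKM. PKDREJ is a polycystin-family protein of sperm, and lnc-PKDREJ-3 beside it had 2.63 and 7.72 FPKM in the subline and 0.0617 and 0.00528 FPKM in the parent. GPR33 belongs by sequence to the family of chemoattractant receptor genes, and lnc-GPR33-14 had 2.66 and 6.77 FPKM. KANSL2 is a subunit of the NSL histone acetyltransferase complex, and lnc-KANSL2-1 had 3.31 and 5.41 FPKM in the subline and at most 0.0276 FPKM in the parent. In each of these 3, subline library 2 was the higher one.

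HACD2 makes very-long-chain fatty acids as a dehydratase of the elongation cycle, and lnc-HACD2-1 beside it had 2.50 and 5.57 FPKM. CBLB is a ubiquitin ligase that dampens receptor signalling in lymphocytes, and lnc-CBLB-15 had 5.54 and 2.37 FPKM. For lnc-CBLB-15 the parental libraries were listed at exactly 0, which was so for 2 of the 20 genes, the other being lnc-SLC4A3-5. Since a 0 in such a table may only mean that an estimate failed, no ratio of the lines is given for any member.

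The lowest 8 members had means between 2.28 and 3.35 FPKM. They lie beside NAIP, an inhibitor of apoptosis and sensor of bacterial proteins; GPR161, a ciliary receptor that restrains Hedgehog signalling; PFKFB3, which makes a sugar phosphate that stimulates glycolysis; and SLC4A3, an anion exchanger. The others lie beside XCL2, a lymphocyte chemokine, FRG2, a gene of the facioscapulohumeral dystrophy region, and SMCO4 and SMIM17, which code for small membrane proteins. Of these, lnc-NAIP-4 had 4.20 and 2.50 FPKM, lnc-GPR161-1 had 3.68 and 2.99 FPKM lnc-PFKFB3-9 had 2.52 and 3.77 FPKM and lnc-SMCO4-3 had 2.77 and 3.39 FPKM. NAIP and FRG2 lie in duplicated parts of the genome, so the values of lnc-NAIP-4 and of lnc-FRG2-1 (2.13 and 3.02 FPKM) are uncertain where reads could be shared with a near-identical copy.

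Some members lay close to the limits that chose them. Nearest to the subline limit of 2 FPKM were lnc-SMIM17-4, at 2.05 and 2.67 FPKM, lnc-XCL2-3, at 2.06 and 2.78 FPKM, and lnc-FRG2-1. Just outside it were lnc-NR5A1-4, at 2.13 and 1.97 FPKM, lnc-RPS27A-6, at 1.93 and 2.47 FPKM, and lnc-C1QTNF3-AMACR-3, at 1.91 and 3.12 FPKM, each under 0.1 FPKM in both parental libraries. Nearest to the parental limit were lnc-NAIP-4, at 0.0772 FPKM in parental library 1, lnc-PFKFB3-9, at 0.0728 FPKM in parental library 2, and lnc-PKDREJ-3. Just outside it were lnc-TOX3-9, with up to 0.106 FPKM in the parent and 2.69 and 27.2 FPKM in the subline, lnc-ASPH-4, with up to 0.176 and then 2.36 and 2.57 FPKM, and lnc-DEFB116-8, with up to 0.177 and then 11.1 and 8.84 FPKM. Levels of the genes inside and outside a limit ran into each other, so the limits mark no gap in these data.

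The subline libraries differed on many of these genes. The higher value was a median of 1.56 times the lower across the 20 members, and 1.24 times across the 1533 lnc-GENE-number genes with at least 2 FPKM in both. Of the members, 10 differed by less than 1.5-fold and 6 by more than 2-fold: lnc-ELP2-1, lnc-PKDREJ-3, lnc-BEND3-2, lnc-GPR33-14, lnc-CBLB-15 and lnc-HACD2-1. The most even was lnc-SLC4A3-5, at 2.22 and 2.35 FPKM. Library 2 held the higher value in 14 members and library 1 in 6. These are descriptions of genes chosen on the same values, with no test.

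**Figure D2:**
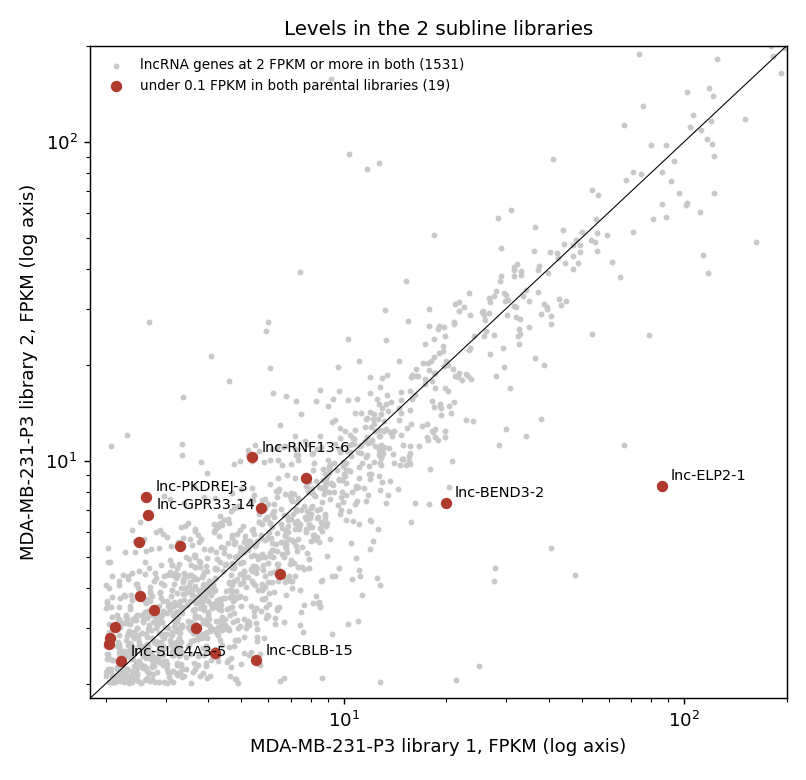
FPKM in subline library 1 against subline library 2, both on log axes and up to 200 FPKM, with the line of equal values; grey points are the lncRNA genes with at least 2 FPKM in both and red points 19 of the members. The point of lnc-ELP2-1 lies far to the right of the line (86.2 against 8.34 FPKM), and that of lnc-SLC4A3-5 close to it (2.22 against 2.35 FPKM).

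The rule was also applied with the libraries paired in the other possible ways, as a measure of how often a gene is high in any 2 libraries and near 0 in the other 2. The pair of subline libraries gave the most genes, 20, or 1.30% of the 1533 genes with at least 2 FPKM in both. The reverse pair, both parental libraries high and both subline libraries under 0.1 FPKM, gave 9 genes, or 0.654% of 1376. Of the pairs that mixed the lines, library 1 of each line gave 13 (0.966% of 1346), more than the reverse pair. Parental library 1 with subline library 2 gave 7 (0.514% of 1362). Library 2 of each line gave 6 (0.443% of 1353), and parental library 2 with subline library 1 gave 5 (0.386% of 1295). Each mixed pair holds 1 library of each line, and these pairs gave between 5 and 13 such genes. No p-value is given for these counts.

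Single libraries of the same line also disagreed in this way. Of the 2009 genes with at least 2 FPKM in subline library 1, 95 (4.73%) were under 0.1 FPKM in subline library 2, and in the opposite direction 79 of 2010 (3.93%) were. Between the parental libraries the shares were 6.23% and 4.87%. From a subline library to a parental one they were between 6.82% and 8.66%, and from a parental library to a subline one between 4.30% and 4.60%. The step from a subline library to the parent was thus larger than the step between libraries of either line. Over all genes with at least 2 FPKM, the step from the parent to the subline was within the range of the steps inside the lines.

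**Figure D3:**
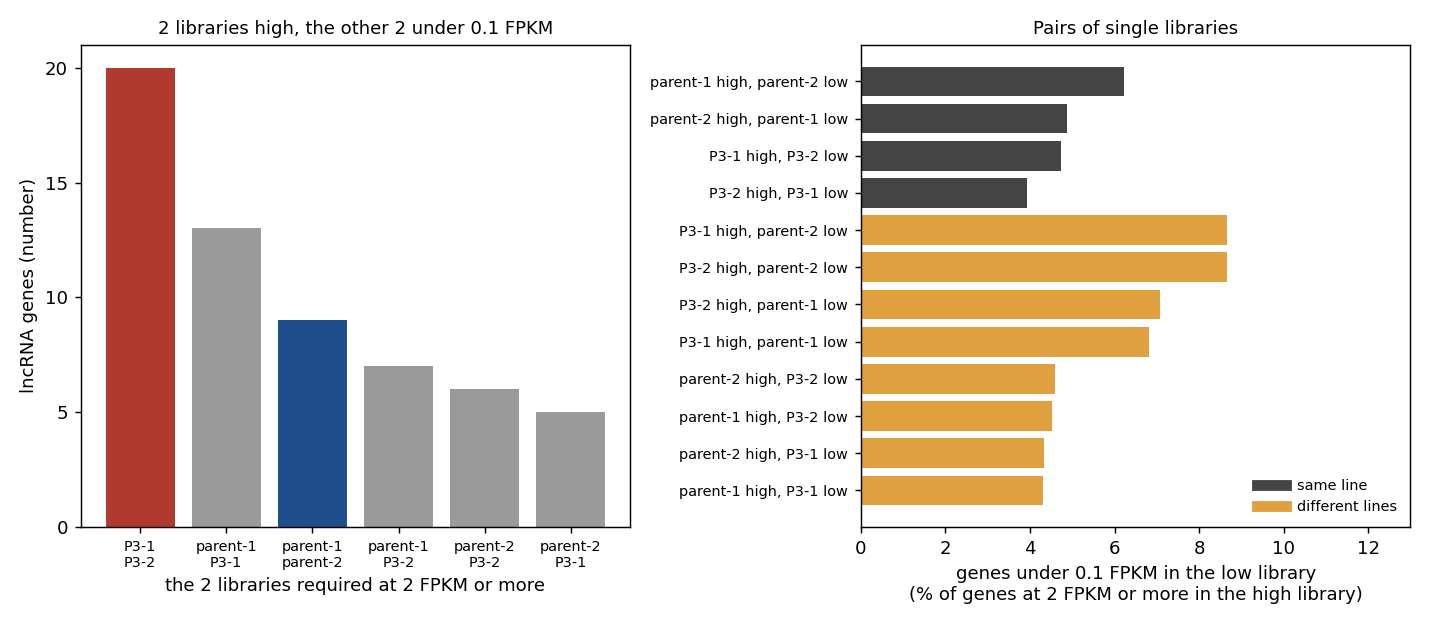
Left, the number of lncRNA genes with at least 2 FPKM in the 2 libraries named below each bar and under 0.1 FPKM in the other 2. Right, for each ordered pair of libraries, the share (%) of genes with at least 2 FPKM in one that were under 0.1 FPKM in the other. P3 is the subline; the subline pair gives 20 genes and the pairs that mix the lines give 5 to 13.

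The level mattered to this disagreement. Among genes between 2 and 10 FPKM in subline library 1, where most members lie, 5.62% were under 0.1 FPKM in subline library 2 and 7.73% and 10.1% in the parental libraries. Among genes with at least 10 FPKM in subline library 1 these shares were 1.58%, 3.61% and 3.61%. Starting from subline library 2, they were 4.24%, 8.10% and 9.93% between 2 and 10 FPKM, and 2.80%, 3.26% and 3.96% from 10 FPKM, a smaller gap at the higher level than from subline library 1. Between the parental libraries the shares from 2 to 10 FPKM were 7.13% and 5.74%. The steps of 7.73% and 8.10% from the subline to the parent thus lay only slightly above the larger of these. From the parent at 10 FPKM or more, the shares under 0.1 FPKM in subline library 1 were 4.48% (18 of 402) and 3.08% (12 of 390). In subline library 2 they were 2.99% and 1.54%. Between the parental libraries they were also 2.99% and 1.54%, so the steps to subline library 1 lay above those inside the lines, 1 of them barely.

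A fit over all 6444 genes with a mean of at least 0.5 FPKM (limma on log2(FPKM + 0.5), Benjamini-Hochberg adjustment) used the same contrast that chose the set, so its values for the members describe them and support nothing. All 20 passed the filter, which their subline values ensured. The log2 differences ran from 2.48 for lnc-SLC4A3-5 to 5.76 for lnc-ELP2-1 among the 19 members named here, on a scale that understates the change of low values. For genes at or near 0 in the parent these differences are set by the subline level and the pseudocount, and they measure no fold change. Of these 19, limma called 0, and their adjusted p-values ran from 0.0623 to 0.257, where 0.031% of all genes tested were called higher and 0.031% lower. At an unadjusted p under 0.05 stood all 20 members, beside 9.5% of all genes tested on the higher side and 5.68% on the lower side. By the rule, both subline libraries lay above both parental libraries in all 20, which was so for 28.9% of the genes tested, while 21.4% lay below. With 2 libraries against 2, an exact two-sided permutation test of a single gene cannot go below p = 0.333.

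Most members had a single listed isoform. This was so for 17 of the 20 (85%), for 76.0% of all lnc-GENE-number genes and for 52.1% of the 1533 with at least 2 FPKM in both subline libraries. Of the 3 members with several isoforms, 2 were carried by the same isoform in both subline libraries. For lnc-RNF13-6 the isoform lnc-RNF13-6:1 of 6 held 100% and 97.8% of the sum, and for lnc-PFKFB3-9 it was lnc-PFKFB3-9:1 of 2, with the other near 0. The exception was lnc-SLC4A3-5, whose sum was even but whose isoforms were not. The isoform lnc-SLC4A3-5:1 had 0.907 FPKM in subline library 1 and 2.11 FPKM in subline library 2, while lnc-SLC4A3-5:2 had 1.31 and 0.239 FPKM, so the leading isoform changed between libraries of one line. Taken as single isoform rows, the limits chose 19 of the 20 genes, with lnc-SLC4A3-5 missing.

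The neighbouring genes were spread over the genome. All 20 were found as coding genes in the GENCODE annotation lifted to hg19, on 14 chromosomes, with 3 each on chromosomes 1, 3 and 14 and no chromosome holding more. The closest were GPR161 (168048780 to 168106905, minus strand) and XCL2 (168510006 to 168513235, minus strand) on chromosome 1, which are 403100 bases apart. SLC4A3 spans 220492116 to 220506702 of chromosome 2 (plus strand), PFKFB3 spans 6186897 to 6296607 of chromosome 10 (plus strand), and BEND3 spans 107386386 to 107436719 of chromosome 6 (minus strand). No neighbouring gene was shared by 2 members. Of 8 families of coding genes searched by symbol (zinc finger, solute carrier, ribosomal protein, cytokine and NF-κB, matrix and adhesion, developmental transcription factor, RAS and MAPK, and TGF-β, Wnt and Notch), only solute carriers had a member, lnc-SLC4A3-5. That is 5% of the set, beside 2.29% of the 5470 tested genes with such names. The zinc finger group, the largest in the table at 3.44% of those genes, had 0. The chemokine XCL2 was outside the symbols searched for cytokines.

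Other lncRNAs named for the same 20 coding genes did not enter the rule. The table listed 72 of them, beside 18 of the neighbouring genes, with none beside KANSL2 or PKDREJ. They were mostly very low: 41 were under 0.1 FPKM in every library, and 31, beside 13 of the neighbours, reached 0.1 FPKM in at least 1. Of these 31, both subline libraries lay above both parental ones in 17 (54.8%), below them in 2 (6.45%) and overlapped in 12. Among the 14446 further lnc-GENE-number genes that reached 0.1 FPKM, the shares were 27.1% above and 14.3% below. These shares partly restate the limit of 0.1 FPKM: 12 of the 31 reached it in the subline alone, and 10 of the 17 are among them. Of the 16 that reached it in both lines, 7 lay above and 2 below, beside 24.55% and 16.2% of 9499 further genes that did so. LncRNAs beside one coding gene can overlap and share reads, and their positions were not used here, so the 31 are not independent of the members or of each other.

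SLC4A3, chosen for description after its values were seen, had 9 other lncRNAs, and 7 of them reached 0.1 FPKM. In 5 of the 7 both subline values were above both parental ones and in 0 below, beside 27.1% and 14.3% of the 14446 further genes. However, lnc-SLC4A3-8, lnc-SLC4A3-11 and lnc-SLC4A3-12 reached 0.1 FPKM in the subline alone, which favours that count. Of the 3233 further genes that did so, 49.0% lay above. The lncRNA lnc-SLC4A3-8 reached 1.01 and 0.342 FPKM in the subline from a listed 0 in both parental libraries, and lnc-SLC4A3-12 reached 0.504 and 0.208 FPKM, likewise from 0. The lncRNA lnc-SLC4A3-7 reached 1.02 and 0.547 FPKM, from 0.0250 and 0.152 FPKM in the parent. The highest at this locus, lnc-SLC4A3-2, was already present in the parent, at 1.04 and 4.60 FPKM, and had 5.53 and 5.45 FPKM in the subline. Together the 9 others summed to 1.28 and 4.81 FPKM in the parent and 8.50 and 6.95 FPKM in the subline, with no overlap of the lines.

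At PFKFB3, 5 of the 8 others reached 0.1 FPKM. Of these 5, 3 were higher in both subline libraries, beside 27.1% of the 14446 further genes. The lines overlapped for lnc-PFKFB3-3, the only 1 of the 5 that reached 0.1 FPKM in the parent too. The 3 higher ones, lnc-PFKFB3-4, lnc-PFKFB3-7 and lnc-PFKFB3-12, reached it in the subline alone, which favours that count. Among them lnc-PFKFB3-7 had 0.448 and 0.494 FPKM in the subline and lnc-PFKFB3-4 had 0.159 and 0.163 FPKM, and both were listed at 0 in the parent. At BEND3 the pattern was uneven: lnc-BEND3-1 had 10.8 FPKM in subline library 1 and was near 0 in subline library 2 and in both parental libraries. At XCL2, lnc-XCL2-2 likewise had 0.894 FPKM in subline library 1 and 0.0143 FPKM in subline library 2. These 2 lncRNAs count as higher in both subline libraries only through a value near 0 in library 2.

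Some loci did not follow their member. At GPR33 the 8 other lncRNAs summed to 1.59 and 0.780 FPKM in the parent and to 0.278 and 0.0775 FPKM in the subline, opposite to lnc-GPR33-14. These sums came from lnc-GPR33-5, with 0.518 and 0.780 FPKM in the parent, and from lnc-GPR33-2. The latter had 1.07 FPKM in parental library 1 and was listed at 0 in every other library. At ELP2, lnc-ELP2-2 had 1.04 and 2.81 FPKM in the parent and 3.18 and 2.64 FPKM in the subline, so its lines overlapped. Over all 20 neighbours, the summed others lay above in the subline at 8, below at 1 and overlapped at 4, and at 7 there were none or all sums stayed under 0.1 FPKM. The sums at BEND3, HACD2 and XCL2 reached 0.1 FPKM in the subline alone, which favours the count of 8. Those at BEND3 and XCL2 did so through subline library 1 alone. Among 8434 other neighbouring genes with sums of at least 0.1 FPKM in a library, a limit met by 13 of the 20, 29.1% lay above and 16% below.

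**Figure D4:**
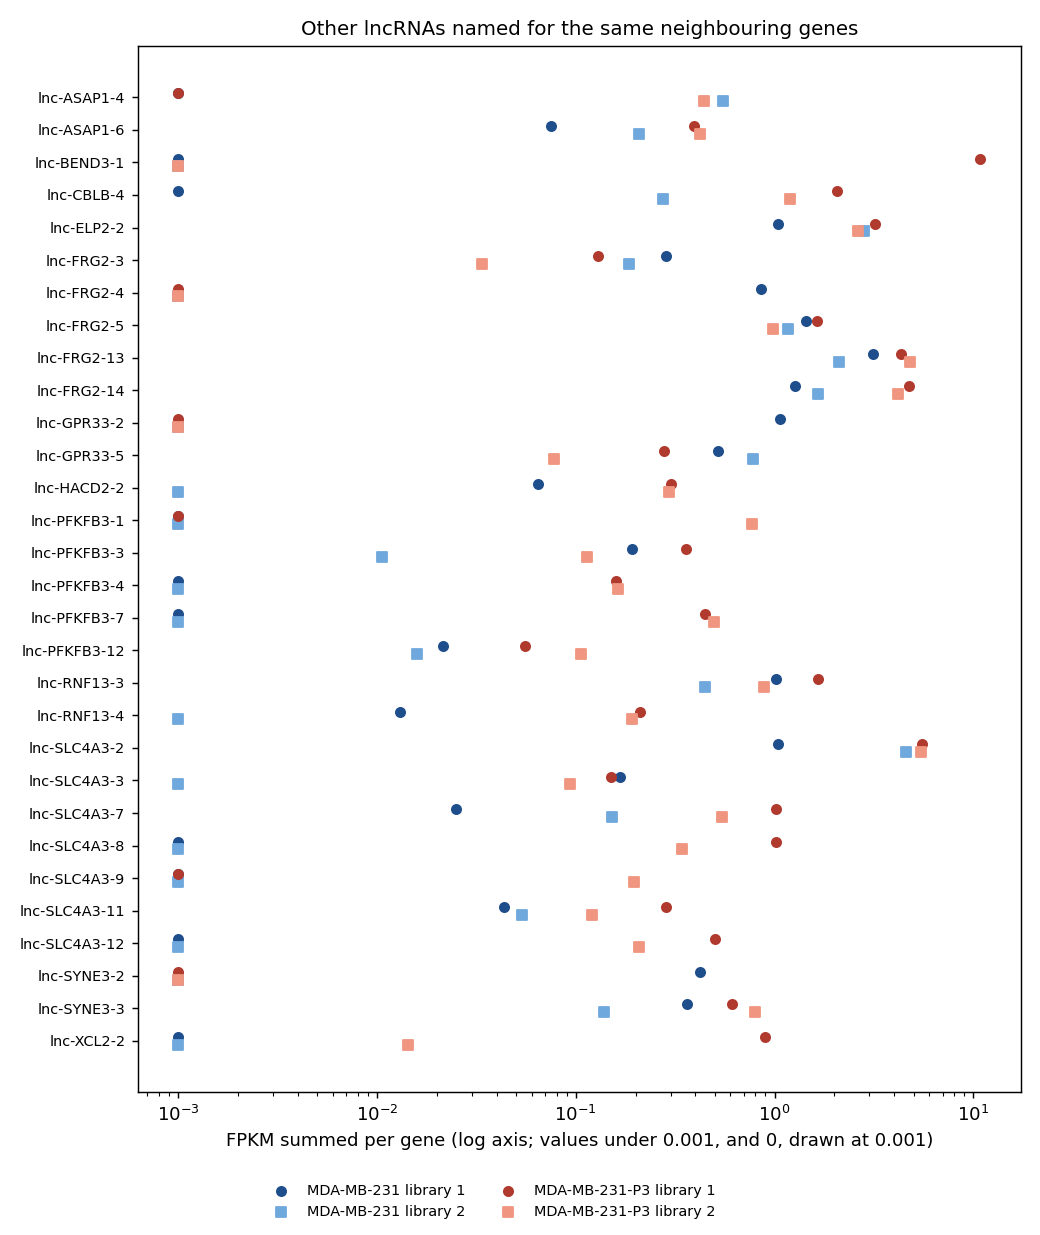
FPKM summed per gene (horizontal log axis) of 30 of the other lncRNAs named for the members' neighbouring genes that reached 0.1 FPKM in a library, 1 point per library, with values under 0.001 FPKM drawn at the left edge. The SLC4A3 group shows 5 of 7 with both subline points to the right, and lnc-ELP2-2 has a parental point (2.81 FPKM) between its subline points (3.18 and 2.64 FPKM).

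Only 9 of the 72 reached the mean of 0.5 FPKM needed for the fit, and lnc-BEND3-1 did so through 1 subline library. With a mean of 0.138 FPKM in the parent, lnc-CBLB-4 passed only through its subline values, which favours a difference on the higher side. In limma, 0 of the 9 were called higher and 0 lower (smallest adjusted p = 0.257), where 0.031% of all genes were called in each direction. An unadjusted p under 0.05 was reached by 2, lnc-FRG2-14 and lnc-CBLB-4, both on the higher side, where 9.5% of all genes stood, with 5.68% on the lower side. The lncRNA lnc-FRG2-14 had 4.74 and 4.16 FPKM in the subline against 1.26 and 1.65 FPKM in the parent, with a difference of 1.34 on the log2 scale (SE 0.27, adjusted p = 0.257 by limma). The lncRNA lnc-CBLB-4 had 2.06 and 1.20 FPKM in the subline against under 0.001 and 0.276 FPKM in the parent, with a difference of 1.74 on the log2 scale (SE 0.44, adjusted p = 0.268 by limma). The only negative difference was -0.02 for lnc-FRG2-5. The median log2 difference of the 9 was 0.72, beside 0.09 over all 6444 genes and 0.12 over the 5470 with such names. It was 0.057 without the filter, which adds lncRNAs near 0, and 0.47 without MDA-MB-231-P3 replicate 1 to 1.14 without MDA-MB-231 replicate 2, so its size rests on the filter and on single libraries. These medians are not all over the same 9: without MDA-MB-231-P3 replicate 1, lnc-BEND3-1 and lnc-CBLB-4 missed the filter.

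LncRNAs named for other coding genes near the members' neighbours did not enter the rule either. The distances given are between coding genes, since the lncRNAs themselves were not placed. Of 55 tested lncRNAs named for coding genes within 500 kb, 19 (34.5%) lay above in both subline libraries and 10 (18.2%) below, beside 28.9% and 21.4% of all genes tested. Their median log2 difference was 0.19. In limma 0 of them were called, and 6 had an unadjusted p under 0.05 on the higher side and 5 on the lower side, beside 9.5% and 5.68% of all genes. Within 250 kb, 13 of 32 (40.6%) lay above and 3 (9.38%) below, with a median of 0.38, and within 1000 kb 34 of 102 (33.3%) lay above and 21 (20.6%) below, with a median of 0.19. Both of these windows, like that of 500 kb, were chosen after the data were seen. By locus, the median within 500 kb was positive at 14 of the 20 neighbours and negative at 6, from 1 to 11 lncRNAs each. Taken singly, 32 of the 55 lncRNAs had a positive difference, beside 3524 of all 6444 genes tested. The windows of GPR161 and XCL2 share their 1 lncRNA (0.81), which is counted at both. At SLC4A3 the median of the 2 tested was -0.08, and at BEND3 the single one tested had -0.70. None of the 9 genes with the reverse pattern, high in both parental libraries and under 0.1 FPKM in the subline, was named for a member's neighbour.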

How the data were processed

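Strand-specific libraries of the mRNA fraction were sequenced as paired ends, per the labels' protocols. The authors aligned reads with HISAT2 to hg19 and deposited FPKM per lncRNA isoform, per the labels' protocols, and StringTie is named in the submitters' processing notes. Their versions, and the lncRNA annotation, are not given in the sources consulted. The 4 per-sample files equalled the series table. Depth was unknown, so no counting error was given.

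Isoform FPKM were summed per gene and the rule applied (Python 3.11.15, pandas 2.3.3). Genes with a mean of at least 0.5 FPKM were fitted in R 4.3.3 by limma 3.58.1 on the log2(FPKM + 0.5) scale (eBayes with trend, two-sided, no block, adjusted over all 6444 genes), tested on simulated data. Neighbours were placed with GENCODE release 44 lifted to GRCh37. Named genes were the members, those next to each limit, and the tested lncRNAs of the same neighbour with the largest differences. Lower-level lncRNAs of the same neighbours and the 500 kb windows were chosen after values were seen. The members and lists were chosen with earlier results of these data known. Among the members, 1 that is counted in the totals is not reported here. Alternatives were other limits, scalings, pseudocounts, filters, no trend, the replicate block and leaving out each library. Replicate numbers share only a number (r = 0.078 between the within-line differences).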

Additional observations from a re-analysis of the deposited data

How the results depend on the processing

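The number of chosen genes, 20, followed the limits: it was 50 with at least 1 FPKM in the subline, 6 with at least 5, 13 with a parental limit of 0.01 FPKM and 31 with 0.5. It was 17 with quantile normalization and 14 with equal medians, all of them among the 20, and 24 with single isoform rows. Leaving out a library, which drops 1 of the conditions, gave 47 to 93. The 4 calls over all genes, of which 1 was a member, fell to 0 and 0 with a pseudocount of 1, without the filter, without the trend and with the replicate block, to 2 and 0 with quantile normalization, and to 0 to 0 in each fit without a single library, where the lone library is assumed to vary like the other line. All 228 repeats of the differences of the 19 named members stayed positive, from 1.72 to 7.93, a direction that the choice of members fixes. The median of the lncRNAs of the same neighbours, 0.72, was 0.057 without the filter, which adds lncRNAs near 0, and 0.47 to 1.14 without single libraries. Without MDA-MB-231-P3 replicate 1, lnc-BEND3-1 and lnc-CBLB-4 missed the filter. In every setting that kept all libraries, 0 were called. The uncalled difference of lnc-FRG2-5 changed sign, to 0.095 without MDA-MB-231 replicate 1 and 0.24 without MDA-MB-231-P3 replicate 2, in a range of -0.28 to 0.24 over single libraries left out. Members with 1 leading isoform in both libraries numbered 1, against 2, among those with 2 or more isoforms above 0.1 FPKM. With windows of 250 and 1000 kb, chosen like that of 500 kb after the data were seen, the median was 0.38 and 0.19. For each of these shifts the cause was not tested.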
